A study of Mus musculus with 198 samples.

Results

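The genes described here encode the 5 complexes of oxidative phosphorylation. They were chosen by name: symbols beginning with mt-Nd, mt-Co, mt-Cytb, mt-Atp, Nduf (followed by a, b, c, s or v and a digit), Cox4 to Cox8, Uqcr or Atp5, plus Sdha to Sdhd, without the 5 genes whose symbols mark pseudogenes. The rule gave 97 of 56332 genes, 13 of them on the mitochondrial genome and 84 in the nucleus. By complex there were 44 members of complex I (7 mitochondrial), 4 of complex II (all nuclear), 9 of complex III (1 mitochondrial), 21 of complex IV (3 mitochondrial) and 19 of complex V (2 mitochondrial), with each gene placed by its symbol. The libraries came from C57BL/6 mice of both sexes that had received either a control treatment or aPAPPA, an antibody against the protease PAPP-A, for 17 weeks. There were 12 control mice, 6 female and 6 male, and 10 aPAPPA mice, 5 female and 5 male, and age is not given in the sources used here. Each mouse gave 1 total RNA library from each of 9 tissues (heart, kidney, liver, subscapular fat, gonadal fat, lung, skin, spleen and bone marrow). The spread between the libraries of a group is therefore a spread between animals.

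Complexes I and II take electrons from NADH and succinate, complex III passes them through cytochrome c to complex IV, which reduces oxygen, and complex V uses the resulting proton gradient to make ATP. Complexes I, III, IV and V are mosaics: a few hydrophobic core subunits are translated inside the organelle from mitochondrial DNA, and the others are made in the cytosol and imported. Some nuclear subunits of complex IV occur in alternative forms, one form general and the other typical of heart and skeletal muscle, and of brown fat for some. Heart muscle, brown fat and the kidney tubule are known for dense mitochondria.

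Total counts ran from 4138419 to 19517950 per library. Between 43.1 and 95.0% of these (median 79.3%) fell on 6 ribosomal RNA features, which were left out before scaling, and 332437 to 5130037 counts remained. Levels below are CPM, these remaining counts divided by TMM-scaled library sizes. In 4 further abundant non-coding features lay 8.14 to 89.97% of the remainder. The markers of the labelled tissue were present in each tissue. They were low, or few genes were detected, in 6 libraries, which stay in the results below unless stated. In 5 of these the mean log2 CPM of the tissue's own markers was more than 2 below the tissue median: the hearts of control female 22 (7.43 against 9.88) and aPAPPA male 56 (7.33), the gonadal fat of aPAPPA male 58 (6.90 against 9.50), the lung of control male 68 (0.80 against 9.94) and the subscapular fat of control female 20 (6.96 against 9.14). The skin library of aPAPPA female 36 had only 308 genes with 10 or more counts. In bulk tissue, fewer cells of a type and less RNA per cell cannot be told apart.

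The mitochondrial members are set out first by sequence, because several of them share bases with a neighbour or with a nuclear copy, and this bears on what their counts mean. On the mouse mitochondrial genome mt-Atp8 and mt-Atp6, which encode 2 membrane subunits of complex V, lie on 1 transcript and overlap in 43 coding bases. They are shown at chrM:7887-8009 (mm10, plus strand) with the bases that belong to both genes in capitals.
mt-Atp8 and mt-Atp6: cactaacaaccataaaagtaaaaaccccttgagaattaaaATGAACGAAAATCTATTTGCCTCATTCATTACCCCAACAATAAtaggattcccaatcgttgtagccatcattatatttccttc
mt-Nd4l, the complex I gene with the most frequent sex difference below, is shown whole (chrM:9877-10173, plus strand, 297 bases, coding). Its last 7 bases, in capitals, are also the first of mt-Nd4, with which it shares a transcript.
mt-Nd4l: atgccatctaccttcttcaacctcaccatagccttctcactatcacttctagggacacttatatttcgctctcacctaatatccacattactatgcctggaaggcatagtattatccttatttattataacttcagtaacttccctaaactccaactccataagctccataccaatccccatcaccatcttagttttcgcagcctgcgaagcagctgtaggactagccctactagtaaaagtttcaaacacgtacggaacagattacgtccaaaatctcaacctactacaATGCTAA
mt-Nd5 and mt-Nd6 share 14 bases on opposite strands.

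A stretch of chromosome 1 (24611535 to 24616197, minus strand, mm10) holds a near-identical copy of part of the mitochondrial genome, annotated as the pseudogenes Gm28439, Gm28438, Gm28437, Gm10925, Gm28661 and Gm29216. The copies of mt-Nd4 (876 bases compared), mt-Co3 (783), mt-Atp6 (678) and mt-Co2 (681) held no differing base. Over 345 bases of mt-Nd3 there was 1 difference, T3C, and over 483 bases of mt-Co1 there was 1, A1066T, with positions counted from the first base of the mitochondrial gene, whose base is given first. The windows around these differences are shown with the differing base in capitals, at chrM:9459-9481 and chr1:24613097-24613119 (minus strand), and at chrM:6390-6413 and chr1:24616165-24616188 (minus strand). All of them are coding bases of the mitochondrial gene.
mt-Nd3: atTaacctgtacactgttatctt
Gm28438: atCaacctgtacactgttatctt
mt-Co1: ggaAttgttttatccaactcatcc
Gm29216: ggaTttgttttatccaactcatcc
The end of mt-Co2 (chrM:7637-7696, plus strand) is shown beside that of its copy Gm28661 (chr1:24614885-24614941, minus strand). The capitals mark the stop codon, which lies past the annotated end of the copy, and the remaining bases were identical.
mt-Co2: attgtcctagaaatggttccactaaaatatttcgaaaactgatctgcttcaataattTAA
Gm28661: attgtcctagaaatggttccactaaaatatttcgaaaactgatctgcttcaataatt

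Counts were divided between mt-Co2 and this copy differently from tissue to tissue. In the 12 control hearts mt-Co2, a catalytic core subunit of complex IV, had 2593 to 11920 CPM with a median of 7530, and Gm28661 a median of 12650. In kidney mt-Co2 ranged from 9.33 to 1997 CPM (median 525.7), while Gm28661 had a median of 7342. In marrow the medians were 132 CPM for mt-Co2 and 3019 for the copy. The copy thus held most of the counts of the pair in these tissues, and in kidney and marrow mt-Co2 alone varied far more between mice than the sum. With both summed, the marrow contrast of mt-Co2 against the other tissues turned from -2.30 to 0.52 ± 0.17 (log2, SE; edgeR quasi-likelihood adjusted p 0.00465) and the kidney contrast from -0.36 to 1.48 ± 0.16. For mt-Co3 the same step moved kidney from 0.62 to 1.46 and marrow from -0.91 to 0.34 (edgeR adjusted p 0.0761). Values below are of the gene alone unless a sum with its copy is named, and those of mt-Co2, mt-Co3 and mt-Nd3 in particular depend on how such reads were divided. The copy of mt-Nd4, Gm28439, had a median of 0 CPM in every tissue and at most 6.75.

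**Figure D1:**
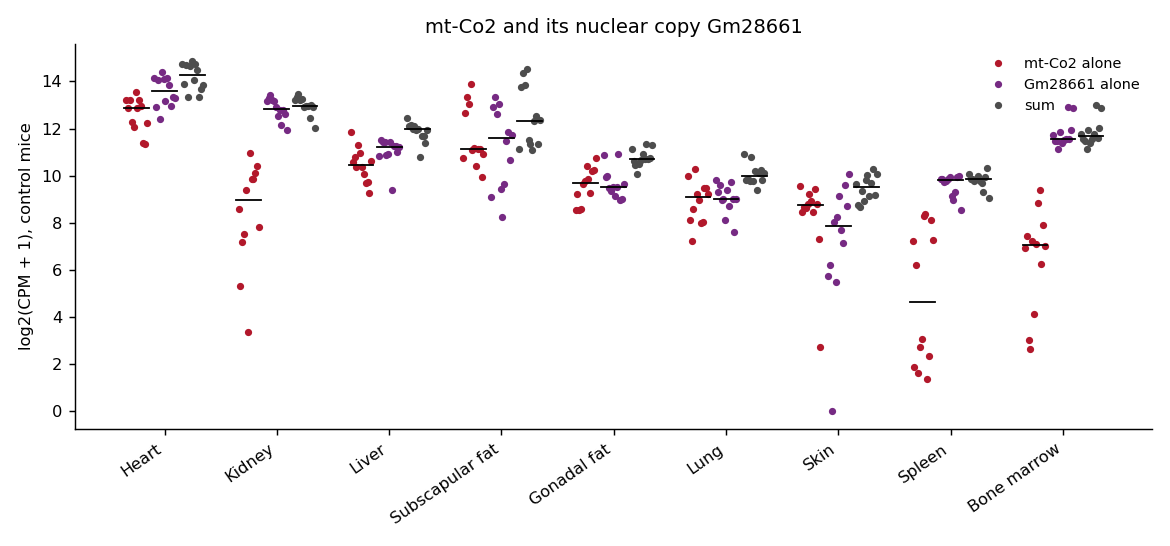
log2(CPM + 1) of mt-Co2, of its chromosome 1 copy Gm28661 and of their sum in the 12 control mice of each tissue; points are libraries and bars medians. In kidney and marrow mt-Co2 lies below its copy and spreads widely, while the sum keeps a narrow range.

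Heart devoted the largest mean share of its counts to the chain. In control hearts the 13 mitochondrial mRNAs took 11.74% ± 4.90 (SD, n = 12) of the counts outside the ribosomal RNA features, with a range of 5.22 to 19.05%, and the nuclear members took 1.84% ± 0.74. Kidney followed with 5.38% ± 1.60 and 0.819% ± 0.289, and subscapular fat with 5.35% ± 4.18 and 1.14% ± 0.85. Heart and kidney ranges met between 5.22 and 8.40%, and subscapular fat ran from 2.29 to 14.16%, across both. Lower mitochondrial shares were found in marrow (3.77% ± 2.23), liver (2.36% ± 0.74), gonadal fat (1.76% ± 0.55) and lung (1.35% ± 0.43), and the lowest in spleen (0.866% ± 0.210) and skin (0.675% ± 0.317). The ranges of all neighbours in this order overlapped. The nuclear shares had another order at the bottom: liver 0.470%, gonadal fat 0.476%, lung 0.333%, skin 0.239%, spleen 0.221% and marrow 0.168%. Without the libraries in doubt the heart means were 12.33 and 1.93%.

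Marrow stood apart in the balance of the genomes. The log2 ratio of mitochondrial to nuclear counts was 4.36 ± 0.45 (SD, n = 12) in control marrow, from 3.78 to 5.36. In no other control library of the study did it exceed 3.21, a kidney value. Kidney had 2.75 ± 0.17, heart 2.67 ± 0.13, liver 2.31 ± 0.17, subscapular fat 2.21 ± 0.13, lung 2.04 ± 0.22, spleen 2.02 ± 0.46, gonadal fat 1.85 ± 0.26 and skin 1.42 ± 0.36. Adding the chromosome 1 copies raised the marrow ratio to 4.77 and left marrow highest, with kidney next at 3.11. Those copies held 24.3% of the summed mitochondrial counts in marrow, 22.0% in kidney, 20.8% in spleen and 9.83 to 13.7% elsewhere. The ratio is a description of the libraries and carries no test.

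**Figure D2:**
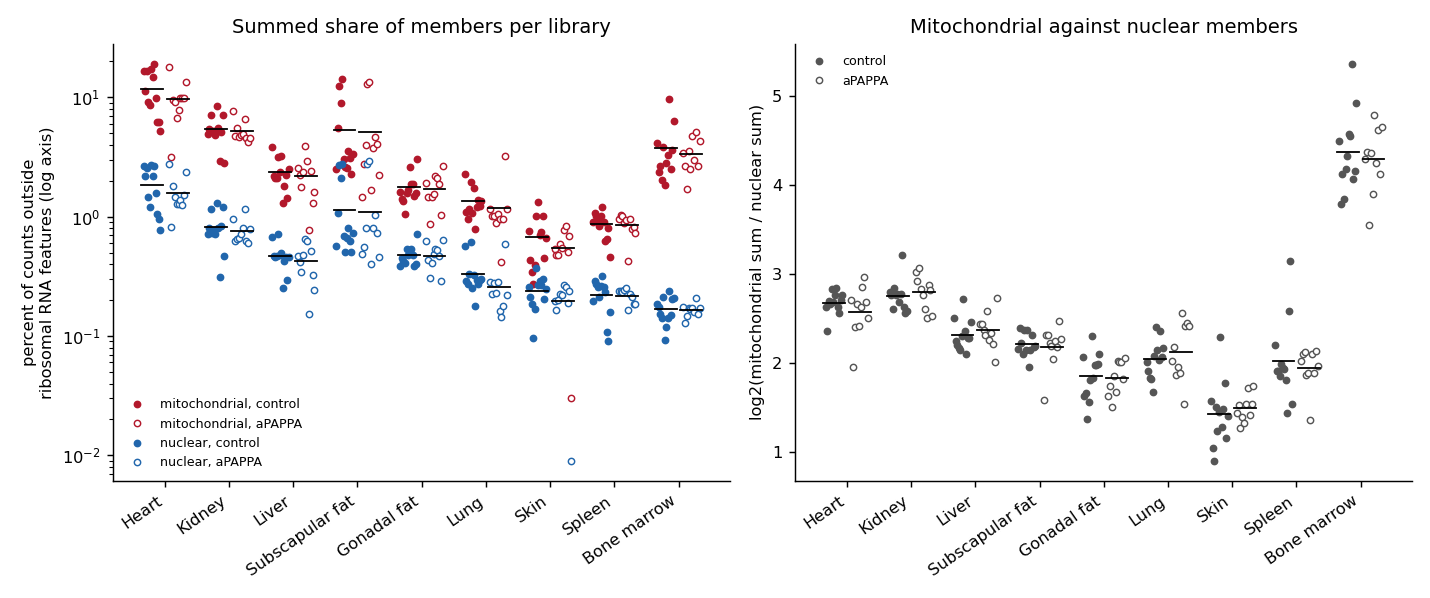
Left, the percent of each library's counts outside the ribosomal RNA features taken by the mitochondrial (red) and nuclear (blue) members on a log axis; right, the log2 ratio of the former to the latter. Control libraries are filled, aPAPPA libraries open, and bars are means; marrow has the highest ratio (3.78 to 5.36 in controls) with the lowest nuclear share (mean 0.168%).

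Each tissue was then compared with the mean of the 8 others in the libraries of the 12 control mice. A gene was called at an adjusted p under 0.05 (edgeR quasi-likelihood, Benjamini-Hochberg over 17241 genes) and at least a 2-fold difference. Of the members 93 had enough counts, 13 mitochondrial and 80 nuclear, and Cox4i2, Cox6b2, Cox7b2 and Cox8c did not. The contrasts share libraries, since every tissue is part of the reference of the others, and they are given side by side. In heart 90 of 93 members were higher (15.7% of all genes were) and 0 lower (11.9% of all genes). The median log2 difference was 2.716 for mitochondrial and 2.598 for nuclear members, against -0.09 over all genes. Subscapular fat had 83 higher (13.1% of all genes) and 0 lower (5.43%), with medians of 1.36 and 1.53 against 0.01. In kidney 48 were higher (14.6%) and 1 lower (13.3%), with medians of 1.64 and 0.99 against -0.09. Liver had 14 higher (15.5%) and 4 lower (19.5%), close to or under the share of all genes, with medians of 0.56 and 0.70 against -0.14.

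The remaining tissues lay on the other side. In gonadal fat 0 members were higher (13.1% of all genes) and 9 lower (6.29%), of which 6 were mitochondrial. Lung had 0 higher (15.9%) and 47 lower (4.54%), with medians of -1.58 for mitochondrial and -0.95 for nuclear members. Skin had 1 higher (14.5%) and 75 lower (19.6%), with medians of -2.32 and -1.25. In spleen 0 were higher (13.5%) and 87 lower (17.7%), with medians of -1.97 and -1.56. Marrow divided by genome: of all 93 members 3 were higher (22.4%) and 71 lower (26.9%), and the 3 were mitochondrial. The mitochondrial median there was 0.56 and the nuclear median -1.71, against -0.14 over all genes. Across single genes heart had the highest control median for 89 of the 95 members whose median was above 0 in any tissue, and the exceptions were kidney for Atp5sl (now known as a complex I assembly factor), Cox6a1, Cox8a and Cox6b2, lung for Cox4i2 and skin for Ndufa4l2. The lowest median fell in marrow for 48, skin for 25 and spleen for 19.

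Within complex I, all 37 nuclear members tested were higher in heart, with a median of 2.53. Ndufs1, the subunit that carries several of the iron-sulphur clusters, had 313.1 to 727 CPM in control hearts (median 540.4) and 22.8 to 37.7 in marrow (median 27.1). The ranges lay far apart, and between them stood kidney (median 188.7), subscapular fat (163; 84.4 to 782.7), liver (110.7), gonadal fat (63.1), lung (39.2), skin (37.2) and spleen (35.7). Its heart contrast was 2.87 ± 0.12 (log2, SE; edgeR adjusted p 8e-42). Subscapular fat reached above the hearts in its highest library and below the kidneys in its lowest. Genes are set beside each other per kilobase of exon union, where a long union lowers the level. On this scale Ndufs1 had a heart median of 66.8 CPM, Ndufv1, which binds NADH, 148.3, and the mitochondrial core subunit mt-Nd1 10570. In liver the most raised members were Uqcrq (1.90 ± 0.16), a small complex III subunit, and Ndufa6 (1.46), an accessory subunit of complex I.

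Complex II, the only complex without a mitochondrial gene, was higher in heart in 4 of 4 members. Sdha, which oxidises succinate, ran from 484.9 to 960.5 CPM in control hearts (median 809.7) and from 29.8 to 53.8 in marrow (median 33.2). These are the highest and lowest tissue medians of the gene and differ 24.4-fold. Sdhc, one of the membrane anchors, had 134.1 to 352.9 CPM in heart (median 248.9) and 2.07 to 12.5 in marrow (median 4.82). It had the largest fall of any complex I to V member in marrow apart from Ndufa4l2, at -3.07 ± 0.21 (edgeR adjusted p 2.8e-26). All 4 members were lower in marrow, with a median of -2.19. Per kilobase the heart medians of Sdha and Sdhb, the iron-sulphur subunit, were alike at 196.2 and 183.7 CPM.

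For complex III, 8 of 8 nuclear members were higher in heart and 7 of 8 lower in marrow. Uqcrfs1, the Rieske iron-sulphur protein, had 221.4 to 549.1 CPM in control hearts (median 415) and 5.81 to 17.1 in marrow (median 10.0), a 41.4-fold difference of medians. It was also among the members highest in subscapular fat (2.21 ± 0.15; edgeR adjusted p 2.53e-25). Cytochrome b, mt-Cytb, behaved differently in marrow, with a contrast of 0.53 ± 0.17, below the 2-fold limit. Per kilobase, mt-Cytb had a heart median of 10920 CPM beside 304.5 for Uqcrfs1 and 137.2 for the core protein Uqcrc1.

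Complex V followed heart in 16 of 17 nuclear members. Atp5b, the catalytic beta subunit of the F1 head, ran from 1955 to 3612 CPM in control hearts (median 2763) and from 52.2 to 99.3 in marrow (median 66.6), at -2.89 ± 0.21 in the marrow contrast (edgeR adjusted p 9.07e-25). Atp5a1, the alpha subunit, stood at -2.67 there. The membrane ring of complex V is built from a peptide that 3 genes encode identically after import. Atp5g1 had 32.4 to 761.6 CPM in control hearts (median 505.7, with the lowest value in control female 22) and 2.76 to 10.8 in marrow (median 7.32), and its heart contrast was 4.09 ± 0.16 (edgeR adjusted p 1e-43) against 2.90 ± 0.11 for Atp5g3. Per kilobase the heart medians were 103 CPM for Atp5g1, 179.3 for Atp5g3 and 13.5 for Atp5g2. In subscapular fat Atp5g2 (9.54) stood above Atp5g1 (5.86) on the same scale, in kidney below it (1.95 and 24.5). The exon unions used were 4912 bases for Atp5g1, 1675 for Atp5g2 and 2181 for Atp5g3. A long union lowers the level, so the order of these 3 genes depends on the lengths used.

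Complex IV held the most uneven genes. Cox4i1, the general form of subunit 4, had 371.5 to 947.4 CPM in control hearts (median 687.8) and a marrow median of 43.2, and its alternative Cox4i2 was seen mainly in lung, at 0.394 to 11.5 CPM (median 8.13), with medians of 2.73 in heart and 0 in kidney, liver, skin, spleen and marrow. Per kilobase, heart and marrow medians were 131 and 6.33 CPM for Cox5a, which with Cox5b (205.9 and 11.1) packs around the catalytic core, and 414.7 and 26.4 for Cox6b1, which faces the intermembrane space. They were 318.5 and 14.6 for the small membrane subunit Cox7b, and 112.9 and 17.1 for Cox7a2l, known for joining complexes III and IV. Cox6b2 stayed at 0 to 3.85 CPM in kidney (median 1.71), its highest tissue, and Cox7b2 and Cox8c had a median of 0 in every tissue. The 3 heart and muscle forms gave the greatest heart contrasts of all members. Cox6a2 stood at 7.70 ± 0.30, Cox8b at 6.70 ± 0.28 and Cox7a1 at 6.65 ± 0.24 (edgeR adjusted p 7.61e-45, 1.69e-42 and 4.1e-47). Their general counterparts behaved otherwise: Cox6a1 did not pass (-0.01; edgeR adjusted p 0.992) and Cox8a was under 2-fold (0.38; edgeR adjusted p 0.0215), whereas Cox7a2 rose (2.35 ± 0.14).

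In control hearts Cox6a2 ran from 28.4 to 815.1 CPM with a median of 570.3, and Cox6a1 from 29.4 to 267.4 with a median of 40.3. Per kilobase that is 838.7 CPM for Cox6a2 and 57.4 for Cox6a1. Control female 22, a heart library in doubt, held both extremes, with Cox6a2 at 28.37, Cox6a1 at 267.4, Cox8a at 214.8, the brown fat uncoupler Ucp1 at 2302 and the adipocyte hormone Adipoq at 484.9 CPM. Without it the median of Cox6a2 was 608.3. In kidney the order was the reverse, with Cox6a1 at 96.2 to 204.7 CPM (median 160.5; 228.6 per kilobase) and Cox6a2 at 0.609 per kilobase. Cox8a had its highest median in kidney (198.1 CPM; 77.6 to 236.9), above all tissue medians including heart (74.8; 41.6 to 214.8). Cox8b had 81.9 to 290.1 CPM in heart (median 197.8), and it was at 0 in 10 of 12 control livers.

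Subscapular fat carried the muscle-type forms as well. Cox8b ran there from 3.61 to 585.1 CPM (median 81.9; 227.4 per kilobase against 239.9 for Cox8a), and Cox7a1 from 0.289 to 379.6 (median 40.8). Cox6a2 ran from 0 to 272.5 (median 13.2), with 3 libraries at 0. The subscapular contrasts were 6.17 ± 0.29 for Cox8b, 4.64 ± 0.28 for Cox7a1 and 3.71 ± 0.37 for Cox6a2. Gonadal fat, the other adipose depot, had 1.03 to 3.52 CPM of Cox8b, and its contrasts were -2.80 for Cox6a2 and -1.84 for Cox7a1. In spleen, its lowest tissue, Cox7a1 had a median of 0.346 CPM and was at 0 in 5 of 12 control mice.

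**Figure D3:**
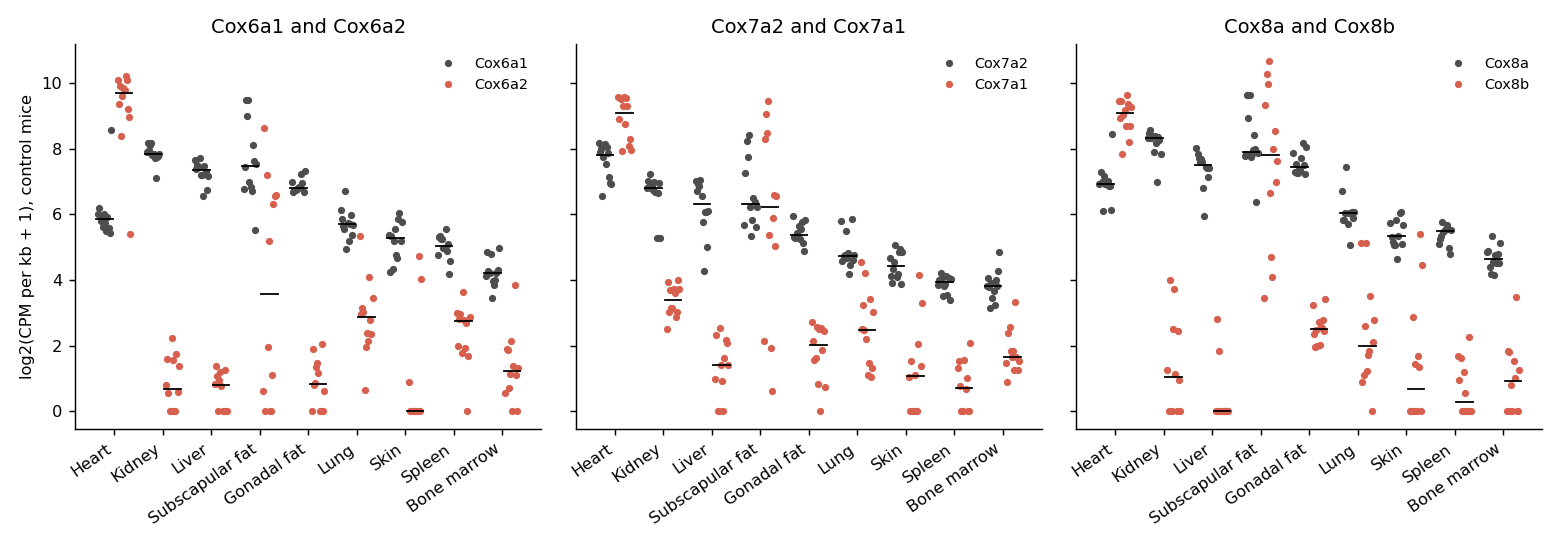
log2(CPM per kilobase of exon + 1) of the general and the muscle-type form of 3 complex IV subunits in the 12 control mice of each tissue, with medians as bars. The muscle-type forms Cox6a2, Cox7a1 and Cox8b are high in heart, spread over the whole range in subscapular fat and near 0 in most other tissues, while Cox6a1 and Cox8a are highest in kidney.

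Promoters of 1 general and 2 muscle-type forms are shown as examples, and none was matched for Cox6a2. The windows hold the 250 bases before the annotated start (RefSeq, GRCm38.p6): Cox6a1 at chr5:115348959-115349208 (minus strand), Cox7a1 at chr7:30183921-30184170 (plus) and Cox8b at chr7:140900447-140900696 (minus). In Cox6a1 the capitals mark matches to the NRF1 motif GCGCNTGCG and the ETS/GABP motif CCGGAAG on either strand, and in the other genes matches to the E-box CANNTG, which is bound by muscle regulators among many factors.
Cox6a1: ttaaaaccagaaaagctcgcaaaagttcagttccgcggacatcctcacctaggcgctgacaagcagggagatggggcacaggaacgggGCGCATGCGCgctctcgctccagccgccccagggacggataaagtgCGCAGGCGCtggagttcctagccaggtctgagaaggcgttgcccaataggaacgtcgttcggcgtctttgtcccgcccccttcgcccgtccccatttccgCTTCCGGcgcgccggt
Cox7a1: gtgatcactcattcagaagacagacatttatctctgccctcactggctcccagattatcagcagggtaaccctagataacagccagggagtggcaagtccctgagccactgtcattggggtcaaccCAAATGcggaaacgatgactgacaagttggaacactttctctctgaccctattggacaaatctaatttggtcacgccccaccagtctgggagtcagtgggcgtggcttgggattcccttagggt
Cox8b: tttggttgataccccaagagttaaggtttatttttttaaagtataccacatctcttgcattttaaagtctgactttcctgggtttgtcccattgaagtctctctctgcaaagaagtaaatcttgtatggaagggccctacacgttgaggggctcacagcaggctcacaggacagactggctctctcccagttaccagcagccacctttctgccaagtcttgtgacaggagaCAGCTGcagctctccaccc
RefSeq promoters were matched for 66 of 84 nuclear members, and the motifs were counted on both strands in 300 bases, 250 before and 50 after the start, where matches of different motifs may overlap. NRF1, a factor known to control respiratory chain genes, matched in 23 members (34.8%) and in 7.12% of 27025 genes. ETS/GABP matched in 16 (24.2% against 9.93%), YY1 (AAGATGG) in 10 (15.2% against 7.28%) and the oestrogen-related receptor element TNAAGGTCA in 3 (4.55% against 1.43%). The E-box matched in 46 members (69.7%) and in 75.0% of all genes. Cox7a2, the general counterpart of Cox7a1, held an E-box and no NRF1 or ETS/GABP match. Cox8a, the general counterpart of Cox8b, held an ETS/GABP match and an E-box. The motifs marked above therefore do not separate general from muscle-type forms. A match describes the letters of the window and not binding.

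Ndufa4 and Ndufa4l2, 2 related genes once assigned to complex I, differed as well. Ndufa4, now known as a complex IV subunit, had its highest median in heart (375.7 CPM) and its lowest in spleen (16.6). Ndufa4l2, a gene known to respond to low oxygen, ran from 10.6 to 65.0 CPM in control skin (median 26.5) and had medians of 5.45 in heart, 3.07 in lung and 3.02 in subscapular fat. It was at 0 in 9 of 12 marrow libraries. It was the only member called higher in skin, at 4.23 ± 0.20 (edgeR adjusted p 1.36e-37), and stood at -1.98 in liver. In skin the mitochondrial members fell most, with mt-Nd2 at -2.76, mt-Atp6 at -2.56 and mt-Nd3 and mt-Co1 at -2.50.

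Among the mitochondrial members in control hearts, the per-kilobase medians spanned a wide range: mt-Co1 45470, mt-Co3 26520, mt-Atp6 15760, mt-Co2 11010, mt-Cytb 10920, mt-Nd1 10570, mt-Atp8 6943, mt-Nd3 6208, mt-Nd2 5534, mt-Nd4 3729, mt-Nd5 3538, mt-Nd6 2345 and mt-Nd4l 1661 CPM. The copies, counted apart, had 18580 for Gm28661 (mt-Co2), 7716 for Gm28437 (mt-Co3) and 8274 for Gm29216 (mt-Co1), so that the place of mt-Co2 in this order is uncertain. The shortest genes, mt-Atp8 (204 bases) and mt-Nd4l (297), each stood below the gene with which they share a transcript. Their places are uncertain as well, and the part of length in the order was not tested. On this scale the genes for complex IV, V and III lay mostly above those for complex I. mt-Nd6, the only gene on the other strand, was near the bottom. Whether the counting used strand is not given in the sources used here, so its reads and those of the opposite strand cannot be told apart. In kidney mt-Nd2 (1.85 ± 0.16), mt-Cytb (1.80), mt-Nd5 (1.80), mt-Atp8 (1.75) and mt-Nd4 (1.73) led the contrast. In lung the 5 lowest were mt-Atp8 (-1.90), mt-Nd6 (-1.84), mt-Nd1 (-1.74), mt-Nd4l (-1.68) and mt-Nd5 (-1.68). Gonadal fat had mt-Nd5 at -1.28 and mt-Nd6 at -1.19. mt-Co1 had its highest median in heart (70250 CPM; 32520 to 100500) and its lowest in skin (2000).

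Marrow was the tissue in which the genomes parted. The mitochondrial members called higher there were mt-Nd4l (1.41 ± 0.16; edgeR adjusted p 5.12e-14), mt-Atp8 (1.20 ± 0.16) and mt-Nd4 (1.17 ± 0.16), and mt-Atp6 joined them when summed with its copy (1.06 ± 0.17). Without the sum, 3 of 13 mitochondrial members were higher, near the 22.4% of all genes that were. The only mitochondrial gene called lower, mt-Co2, is the gene whose sum with its chromosome 1 copy was not. Of the 80 nuclear members 0 were higher and 70 lower, where 26.9% of all genes were lower. By complex, the nuclear counts were 34 of 37 in complex I (median -1.66), 4 of 4 in II, 7 of 8 in III (-1.99), 13 of 14 in IV (-1.61) and 12 of 17 in V (-1.54). Beside Sdhc, Atp5b and Atp5a1, the lowest were Ndufa4l2 (-3.76) and Atp5g1 (-2.58). In spleen, the other blood-forming organ, both genomes were low, with mt-Nd3 at -2.46, Ndufb6 at -2.34, Cox7a1 at -3.32 and mt-Co2 at -3.15 (-1.95 ± 0.22 summed with its copy).

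In subscapular fat the nuclear share varied most between mice relative to its mean (SD 0.85 on 1.14% in controls), and the libraries with the highest levels also held much Ucp1 or Acta1. The summed nuclear members ran from 4175 CPM (aPAPPA female 6) to 35230 (aPAPPA male 70). Male 70 had 7820 CPM of Ucp1, the brown fat uncoupler, with Cox8b at 492.9 and no Cox6a2, and 0.394 CPM of Acta1, skeletal muscle actin. Other high libraries with much Ucp1 were aPAPPA male 62 (32380 summed, Ucp1 6836), control male 68 (31600, 9088), control male 55 (27590, 6600) and control male 61 (21980, 4596). Control male 45 combined a sum of 19170 with Ucp1 at 974.8 and Acta1 at 11160. The library of aPAPPA male 58 reached 15270 with little Ucp1 (48.67) but Acta1 at 12160 and Cox6a2 at 313.4. The 11 females lay between 4175 and 11570, also where Acta1 was high (9325 CPM in female 9 and 9768 in female 23, with sums of 11260 and 11570), and 4 males (37, 41, 71 and 56) between 4421 and 7300. The part of tissue makeup in these levels was not tested.

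**Figure D4:**
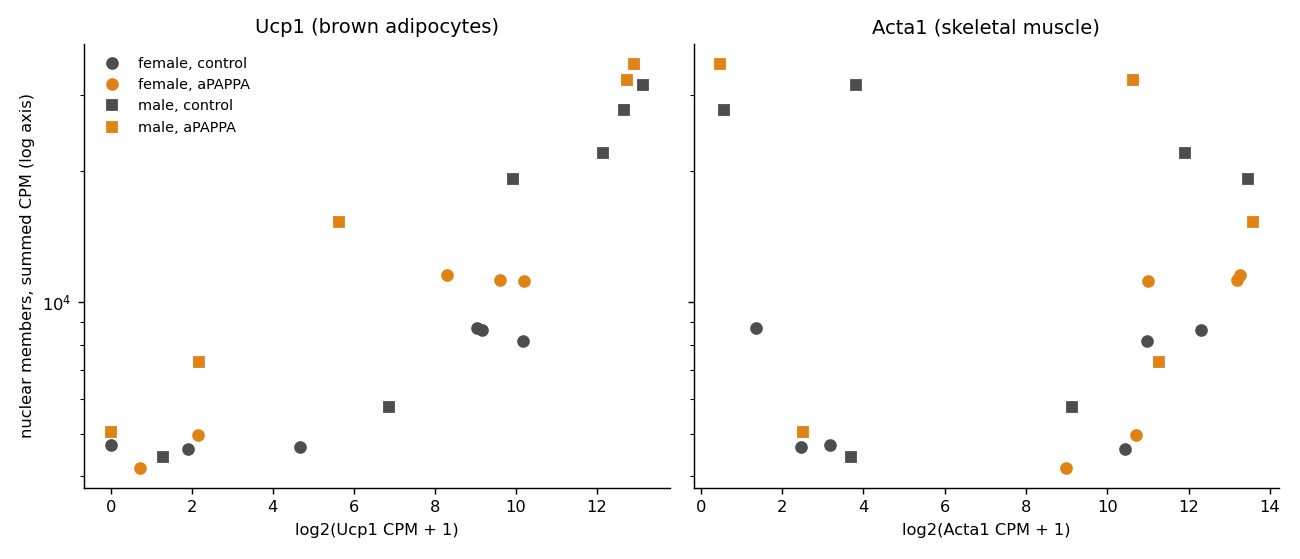
Summed CPM of the nuclear members in the 22 subscapular fat libraries (log axis) against log2(CPM + 1) of Ucp1 and of Acta1, with sex by marker shape and arm by colour. The 5 libraries with the highest sums, 21980 to 35230 CPM, have Ucp1 at 4596 to 9088 CPM, and they are males of both arms.

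The comparison of aPAPPA with control asked whether 17 weeks of antibody altered the chain in any tissue. No member passed in any tissue (edgeR quasi-likelihood, adjusted p under 0.05, sex as covariate, 85 to 93 members tested). The share of all genes that passed was 0.0% in the 8 tissues outside marrow and 0.00735% in marrow, and DESeq2 also called 0 members. At an unadjusted p under 0.05, members numbered 0 in heart (2.87% of all genes), 2 in kidney (2.25% of members, 4.1% of all genes), 3 in liver (3.41%, 3.57%), 0 in subscapular fat (2.49% of all genes), 1 in gonadal fat (5.03%), 1 in lung (6.91%), 1 in skin (3.01%) and 1 in spleen (5.2%). DESeq2 gave 0, 3, 2, 0, 1, 1, 2 and 1 in the same order. Marrow differed in number, with 19 members (21.8% of members, 6.88% of all genes; 23 by DESeq2). The mean mitochondrial share was 9.73% in aPAPPA hearts beside 11.74% in controls, 5.22 beside 5.38% in kidney and 3.36 beside 3.77% in marrow, differences smaller than 1 SD of the controls.

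In marrow all 19 of these members were lower in aPAPPA mice, and 85 of 87 members had a negative log2 difference. The median was -0.30 for mitochondrial and -0.22 for nuclear members, against 0.001 over all genes. Ndufa1, a small accessory subunit of complex I, had 3.98 to 10.7 CPM in controls (median 6.20) and 1.81 to 7.25 in aPAPPA mice (median 4.62), so the arms overlapped. Its difference was -0.60 ± 0.19 (p 0.00389, edgeR adjusted p 0.619). Uqcrh, the hinge protein of complex III, stood at -0.40 ± 0.13 (edgeR adjusted p 0.619) and Ndufb10 at -0.43 ± 0.15 (edgeR adjusted p 0.644). On the positive side were only Ndufc1 (0.13) and Ndufs1 (0.04). Without sex in the model 12 members were under 0.05, and 25 without the low count filter. The summed myeloid precursor markers ran from 3306 to 7703 CPM in control marrow (median 4702) and from 2607 to 6598 in aPAPPA marrow (median 3744), with 0 of 7 passing, and their part in the marrow differences was not tested.

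For the other tissues the members with the smallest p in each direction are given as values. In heart these were Ndufa7 (0.21), Atp5o (0.15) and Cox7b (0.15) on the positive side and mt-Co2 (-0.22), mt-Nd3 (-0.19) and Cox6a1 (-0.24) on the negative, of which mt-Co2 and mt-Nd3 moved to 0.005 and 0.04 when summed with their copies. Medians in heart were 0.02 for mitochondrial and 0.03 for nuclear members. Kidney had mt-Nd6 (0.16), mt-Nd4 (0.17) and mt-Nd5 (0.15), and Atp5o (-0.16), Ndufb3 (-0.22) and Atp5g3 (-0.20). Its mitochondrial median was 0.08 and its nuclear median -0.05. In liver mt-Nd4l had 71.9 to 212.7 CPM in controls (median 132.3) and 81.9 to 289.4 in aPAPPA mice (median 183.3). The arms overlapped over most of their range, and the difference was 0.48 ± 0.18 (p 0.011, edgeR adjusted p 1.0). Next in liver were mt-Nd4 (0.28) and Ndufb7 (0.22), and Ndufa8 (-0.19), mt-Co3 (-0.32, and 0.08 summed with its copy) and Ndufb8 (-0.16) on the negative side.

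Subscapular fat showed large but imprecise values, with Cox6a2 at 1.20 ± 1.07, Atp5g1 at 0.73 ± 0.65, Atp5j at 0.26, Atp5g2 at -0.35 and Cox8a at -0.11. Gonadal fat had Ndufs6 (0.25), Ndufb2 (0.20) and mt-Co2 (0.22, and -0.14 summed with its copy), and Atp5d (-0.23), Cox6b1 (-0.17) and Ndufs5 (-0.18). In lung mt-Nd4l stood at 0.36 ± 0.17 (p 0.0409, edgeR adjusted p 0.717), with Cox4i2 at 0.41 and mt-Nd6 at 0.21, and Ndufb6 (-0.57), Cox6a1 (-0.31) and Cox8a (-0.35) on the other side. Skin had Ndufa4 (0.43), Ndufa3 (0.26) and Ndufa13 (0.21). Sdhb, the iron-sulphur subunit of complex II, ran in skin from 11.7 to 32.9 CPM in controls (median 21.3) and from 0 to 18.8 in aPAPPA mice (median 12.4). No aPAPPA mouse exceeded the control median, and the difference was -0.55 ± 0.19 (p 0.00802, edgeR adjusted p 1.0). The aPAPPA values of Sdhb include the skin library in doubt, in which few genes were detected. Sdhd stood at -0.29. In spleen the values were Ndufa13 0.20, Uqcrh 0.15 and Ndufa9 0.15, and Sdhc -0.24, Atp5o -0.24 and Uqcrc1 -0.15. With libraries in doubt left out, members under an unadjusted p of 0.05 numbered 1 in heart, 0 in gonadal fat, 0 in lung and 2 in skin.

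As a mean over the 9 tissues of each mouse, 0 of 82 members passed for treatment (limma on 22 mouse means, 0.0% of 7164 genes). The smallest adjusted p (limma) was 0.903. At an unadjusted p under 0.05 there were 2 members (2.44%, against 3.15% of all genes), Cox7a2 at -0.17 ± 0.07 and mt-Co3, without its copy, at -0.21 ± 0.10. The medians were -0.04 for mitochondrial and -0.07 for nuclear members, beside -0.04 over all genes.

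**Figure D5:**
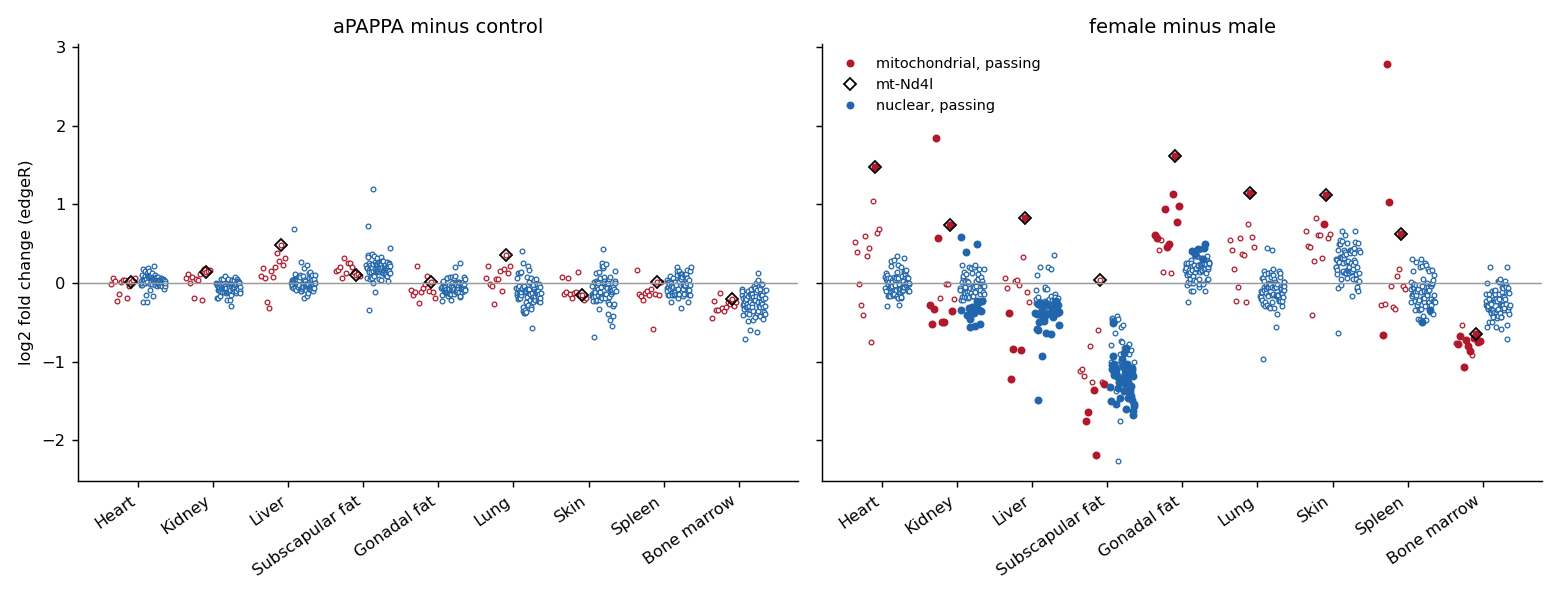
log2 differences of every member tested (edgeR), aPAPPA minus control on the left and female minus male on the right, by tissue; mitochondrial members red, nuclear blue, mt-Nd4l as a diamond, and filled symbols where the adjusted p is under 0.05. No treatment symbol is filled; on the right most filled symbols in liver and subscapular fat lie below 0 and all in gonadal fat above it, and the mt-Nd4l diamonds lie above 0 except in marrow.

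Sex gave many differences. Females and males were compared with treatment as covariate, 11 mice each (edgeR quasi-likelihood, adjusted p under 0.05). The female mice carry the numbers 3 to 36 and the males 37 to 71, so sex and anything that followed that order cannot be told apart. In subscapular fat 57 of 92 members passed, all lower in females (15.6% of all genes passed), and liver had 42 of 88, 1 higher and 41 lower (27.6%). Kidney had 27 of 89, 6 higher and 21 lower (25.0%, close to the share of members), and gonadal fat 15 of 88, all higher in females (14.7%, also close). Marrow had 10 of 87, all mitochondrial and lower in females (0.632%). In spleen 6 of 85 passed, 3 in each direction (4.46%), in skin 2 of 86 (0.346%), in heart 1 of 93 (0.204%) and in lung 1 of 92 (0.127%). Over the tissues 41 of 82 passed, 2 higher and 39 lower (limma, 27.1% of all genes). Medians were 0.004 for mitochondrial and -0.21 for nuclear members beside -0.08 over all genes. By tissue, the nuclear median was -1.12 in subscapular fat and ran from -0.28 (liver) to 0.26 (skin) in the others. The part of single tissues in the mean was not tested.

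The member with the most frequent sex difference was mt-Nd4l, which encodes a small membrane subunit of complex I and whose sequence is shown above. It passed in 8 of the 9 tissues, 7 with females higher. In heart females had 502.5 to 1192 CPM (median 698.8) and males 59.4 to 484.2 (median 309.1), with no overlap, at 1.48 ± 0.29 (edgeR adjusted p 0.028). In gonadal fat females had 49.5 to 132.1 CPM (median 93.0) and males 22.4 to 48.4 (median 29.9). These did not overlap either, and the difference was 1.61 ± 0.15 (edgeR adjusted p 2.74e-07). In lung females had 37.04 to 134.1 CPM (median 53.5) and males 19.7 to 36.1 (median 27.1), again apart, at 1.15 ± 0.17 (edgeR adjusted p 0.000657). Kidney (0.74 ± 0.15), liver (0.83 ± 0.18), skin (1.12 ± 0.21) and spleen (0.63 ± 0.15) had overlapping ranges, with edgeR adjusted p of 0.000436, 0.00123, 0.00901 and 0.0115. Subscapular fat gave 0.04 ± 0.36 (edgeR adjusted p 0.96), with medians of 230.8 CPM in females and 231.6 in males. Marrow went the other way, with females at 92.1 to 230.1 CPM (median 160.3) and males at 156.9 to 468.1 (median 227.7), at -0.65 ± 0.15 (edgeR adjusted p 0.0281). Over the tissues the difference was 0.71 ± 0.08 (limma adjusted p 4.82e-07).

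Set against its neighbour on the same transcript, mt-Nd4l kept part of this pattern. The ratio of mt-Nd4l to mt-Nd4 CPM in kidney was 0.0903 to 0.1285 in females (median 0.1002) and 0.0459 to 0.0716 in males (median 0.0609), with no overlap. In heart the medians were 0.1103 in females and 0.0841 in males, in gonadal fat 0.101 and 0.0727, in liver 0.1187 and 0.0798, and in spleen 0.108 and 0.0733. The female median was also above the male one in the subscapular depot, where mt-Nd4l itself gave 0.04 (0.0986 against 0.0661). In marrow the medians were 0.1057 and 0.1037, and the lower female level there was shared by mt-Nd4 (-0.70). These ratios are a description, with no test. mt-Nd4 passed beside mt-Nd4l in gonadal fat and skin (1.13 and 0.76; edgeR adjusted p 7.92e-05 and 0.0487), and over the tissues (0.31 ± 0.06; limma adjusted p 0.00162). The other mitochondrial members over the tissues ranged on both sides, from mt-Nd3 (-0.53 ± 0.22; limma adjusted p 0.0689) to mt-Cytb (0.12 ± 0.07; limma adjusted p 0.177).

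In gonadal fat 9 of 13 mitochondrial and 6 of 75 nuclear members passed, beside 14.7% of all genes. The nuclear count was under that share. mt-Nd4 had 526.9 to 1226 CPM in females (median 873.6) and 263.1 to 627 in males (median 431.5). All 11 females lay above the male median. Next to it stood mt-Nd6 (0.98), mt-Cytb (0.95), mt-Nd5 (0.78), mt-Atp6 (0.62) and mt-Nd1 (0.46). Among nuclear genes Ndufv1, the NADH-binding subunit, stood at 0.50 ± 0.13, with Ndufb10 at 0.43 and Ndufa13 at 0.37. The summed macrophage markers were 820 to 2272 CPM in females and 1415 to 6034 in males, with 6 of 8 lower in females, and hepatocyte genes were lower in 6 of 7 tested (median -2.46). A cardiomyocyte and a keratinocyte gene, each the 1 tested of its list, were lower too, and 1 of 7 adipocyte genes was higher. Their part in the differences was not tested. Without mouse 33 the count was 26, and without the library in doubt 14.

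In marrow the 10 members lower in females were mt-Nd6, mt-Atp8 (-0.78), mt-Nd5 (-0.75), mt-Cytb (-0.73), mt-Co3 (-1.07, and -0.73 summed with its copy), mt-Nd1 (-0.81), mt-Nd4l, mt-Nd2 (-0.86), mt-Nd4 and mt-Co1 (-0.67). mt-Nd6, the complex I gene on the other strand, had 172.3 to 375 CPM in females (median 276.4) and 313 to 789.7 in males (median 408.6). No female exceeded the male median, and the difference was -0.74 ± 0.13 (edgeR adjusted p 0.0052). Summed with their copies, mt-Co2 (-0.68), mt-Atp6 (-0.72) and mt-Nd3 (-0.84) passed as well (edgeR adjusted p 0.0209, 0.0165 and 0.0156). The nuclear median was -0.27, and 0 of 74 nuclear members passed (smallest edgeR adjusted p 0.0928), where 0.632% of all genes did. At an unadjusted p under 0.05 (edgeR) there were 23 of 74 nuclear members, 0 of them higher in females. Of all genes 13.5% were under that limit. Marrow counts rested on single mice: 3 members passed without mouse 71, 5 without mouse 11, 18, 36 or 58, and 6 without mouse 55 or 9. The myeloid markers were 2607 to 5990 CPM in females and 3800 to 7703 in males, with 1 of 7 lower, and the part of cell makeup was not tested.

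In liver 37 of 75 nuclear members were lower in females and 0 higher, with a nuclear median of -0.28 beside 0.03 over all genes. Cox7a2, the general form of subunit 7a, had 17.3 to 79.3 CPM in females (median 59.5) and 70.7 to 123.9 in males (median 109.5). No female exceeded the male median, and the difference was -0.93 ± 0.16 (edgeR adjusted p 0.00013). Atp5g3 stood at -0.60 ± 0.12, Ndufa4 at -0.63, Uqcrfs1 at -0.53, Atp5e at -0.58, Atp5l at -0.49, Ndufa1 at -0.48, Ndufa10 at -0.42 and Atp5a1 at -0.38. The only member higher in females was mt-Nd4l. Hepatocyte markers overlapped (40480 to 148300 CPM in females, 74930 to 131500 in males, 2 of 8 lower). Erythroid genes were lower in females in 3 of 5 tested, adipocyte and brown adipocyte genes in 1 of 2 each, and macrophage genes higher in 2 of 8 and genes of proliferating cells in 2 of 2; their part was not tested. Without mouse 3 the count of members was 25.

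Kidney members went both ways. Ndufa12, an accessory subunit of complex I, had 38.8 to 60.4 CPM in females (median 50.03) and 60.0 to 99.5 in males (median 75.9), at -0.56 ± 0.09 (edgeR adjusted p 2.95e-05). mt-Nd1 had 2702 to 4169 CPM in females (median 3547) and 4229 to 5761 in males (median 5256), which did not overlap, at -0.50 ± 0.08 (edgeR adjusted p 4.83e-05). The sexes barely met in Ndufa12, where no female exceeded the male median. Also lower were Ndufv3 (-0.52), mt-Nd2 (-0.50), Ndufa13 (-0.46), Cox6b1 (-0.41), Sdhb (-0.36), Ndufs8 (-0.35), Atp5d (-0.34) and Ndufa10 (-0.31). Higher were mt-Nd4l, Ndufc1 (0.50 ± 0.11), Cox5a (0.39 ± 0.09), Atp5e (0.58), mt-Co2 (1.85) and mt-Co3 (0.57). With the chromosome 1 copies added, mt-Co2 turned to -0.41 ± 0.10 (edgeR adjusted p 0.00228) and mt-Co3 to -0.42 (edgeR adjusted p 0.00508), and mt-Nd3 moved from -0.02 to -0.65 ± 0.13 (edgeR adjusted p 0.00033), so that 4 members were higher and 24 lower. The copies held 15.1 to 22.66% of the summed mitochondrial counts in female kidneys and 20.1 to 29.06% in male ones. Tubule markers were 7990 to 16980 CPM in females and 16520 to 22640 in males (2 higher and 3 lower of 8). Adipocyte genes were lower in females in 3 of 7 tested and macrophage genes in 1 of 8, brown adipocyte genes were higher in 2 of 4, and hepatocyte genes (1 higher and 2 lower of 4) and erythroid genes (1 and 1 of 6) went both ways; their part was not tested.

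The same step changed spleen, where mt-Co2 went from 2.79 to -0.20 (edgeR adjusted p 0.487) and mt-Co3 from 1.03 to -0.25 (edgeR adjusted p 0.43), leaving 1 higher and 3 lower. The 3 lower ones were Ndufa6 (-0.50 ± 0.11), mt-Atp8 (-0.66) and Ndufv2 (-0.35). Ndufa6 had 6.81 to 15.0 CPM in females (median 12.0) and 12.99 to 21.12 in males (median 17.7), ranges that barely met. In heart the 1 member passing, mt-Nd4l, was lost without mouse 20, 23, 33, 37, 41, 45, 6, 70 or 71 (0 members each). In lung 2 members passed without mouse 9. In skin 1 member passed without mouse 18, 22, 23, 3, 41, 45, 55, 56, 58, 6, 61, 62, 68, 70, 71 or 9, and 3 without the library in doubt.

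In subscapular fat the sex difference was wide across complexes: 24 of 36 nuclear complex I members (median -1.09), 4 of 4 of complex II (-1.37), 7 of 8 of III (-1.36), 7 of 14 of IV (-1.20) and 10 of 17 of V (-1.01) were lower in females, with 5 of 13 mitochondrial ones. Ndufb3, an accessory subunit of complex I, had 19.9 to 55.6 CPM in females (median 37.1) and 37.9 to 130.1 in males (median 81.7), and the ranges overlapped. Its difference was -1.11 ± 0.23 (edgeR adjusted p 0.00389). mt-Nd3 stood at -2.19 ± 0.51 (-1.81 ± 0.51 summed with its copy), Uqcrc1 at -1.64, Ndufb6 at -1.61, Ndufa9 at -1.38, Cox7a2 at -1.34 and Cox7c at -1.26. Cox8b, typical of brown fat and muscle, stood at -1.75 ± 0.75 (edgeR adjusted p 0.109). The count rested on single mice of both sexes: 14 members passed without mouse 70, 19 without 68, 20 without 62, 27 without 55 and 35 without 61 (all males), 28 without female 6, 31 without female 36 or 4, and 36 without female 3. Brown adipocyte markers summed to 9.83 to 1712 CPM in females and 18.1 to 11320 in males (0 of 6 tested passed, median log2 difference -2.34). Skeletal muscle markers summed to 10.05 to 48900 and 3.94 to 80130 CPM (0 of 8 passed). Among the markers of other cells, erythroid genes were lower in females in 3 of 5 tested, hepatocyte genes in 2 of 2 and cardiomyocyte genes in 1 of 3, while keratinocyte genes were higher in 3 of 3 (median 6.17) a myeloid precursor gene in 1 of 1 and adipocyte genes in 1 of 7. Their part in the difference was not tested.

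Whether the antibody difference depended on sex was asked with an interaction term (edgeR quasi-likelihood). No member passed in any tissue, and of all genes 0.0% passed in the tissues outside spleen and 0.00811% in spleen. DESeq2 called 0 members as well. At an unadjusted p under 0.05 there were 15 members in lung (16.3%, against 7.85% of all genes), 6 in kidney (6.74%, 4.3%), 5 in skin (5.81%, 2.6%), 3 in spleen (3.53%, 2.43%), 2 in liver (2.27%, 3.33%), 2 in marrow (2.3%, 4.45%), 1 in heart (1.08%, 6.06%), 1 in gonadal fat (1.14%, 2.37%) and 0 in subscapular fat (1.6% of all genes). In lung 88 of 92 members had a positive interaction, with a median of 0.61 beside 0.01 over all genes. Ndufa5, an accessory subunit of complex I, stood at 1.22 ± 0.40 (p 0.00599, edgeR adjusted p 0.588), Cox5a at 1.40 and mt-Nd4l at 0.75. The share of counts on ribosomal RNA features was 46.86 to 84.80% in control lungs and 74.24 to 90.43% in aPAPPA lungs, and its part was not tested. The control male lung in doubt and the aPAPPA female lung flagged below for high shares were included, and their part was not tested either. Elsewhere the leading values were Ndufc1 in liver (1.23, edgeR adjusted p 1.0), mt-Nd4l in kidney (-0.77), Ndufa2 in skin (1.18), Uqcrq in spleen (1.14) and mt-Co2 in marrow (2.82, and -0.02 ± 0.30 summed with its copy). In heart 91 of 93 interactions were positive (median 0.55, beside -0.07 over all genes). The hearts in doubt, a control female and an aPAPPA male, were among these libraries, and their part was not tested.

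Other genes of the pathway moved with the members between tissues. In heart, where 15.7% of all genes were higher, the tricarboxylic acid cycle and pyruvate dehydrogenase genes, which feed NADH and succinate into the chain, were higher in 18 of 18 (median 2.57), led by Idh2 (4.25 ± 0.12). Electron carriers and coenzyme Q synthesis genes were higher in 12 of 16 (median 2.27, Coq9 at 3.05), assembly factors of complexes II to V in 17 of 30 (1.19), other complex I genes, mostly assembly factors, in 11 of 15 (1.31), mitoribosomal proteins in 41 of 78 (1.05) and genes of mitochondrial transcription and RNA handling in 10 of 25 (0.64). Regulators of mitochondrial biogenesis were higher in 7 of 11 (2.37), with Perm1 at 5.39 ± 0.19, Esrrb at 5.65 ± 0.22 and the coactivator Ppargc1a at 4.23 ± 0.16. Of uncouplers, carriers and porins 7 of 9 were higher. Among them Slc25a4, the muscle adenine nucleotide carrier, stood at 5.51 ± 0.18, and Ucp1 at 6.77 ± 0.74. In control hearts Ucp1 had a median of 0.84 CPM and reached 2302 in mouse 22, 135.5 in mouse 61 and 14.4 in mouse 45. In subscapular fat 17 of 18 tricarboxylic acid cycle genes were higher (2.03) and Ucp1 stood at 9.21 ± 0.57.

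In marrow, where 26.9% of all genes were lower, the median of each of these lists was negative. Lower were 16 of 18 tricarboxylic acid cycle genes (median -2.06), with Suclg2 at -2.86 ± 0.17, 12 of 16 carrier and coenzyme Q genes (-1.62), 8 of 15 other complex I genes (-1.02), 13 of 30 assembly factors (-0.90), 35 of 78 mitoribosomal proteins (-0.89) and 7 of 25 genes of mitochondrial transcription and RNA handling (-0.81), the last close to the share of all genes. Of the biogenesis regulators 4 were lower and 2 higher of 11 (-0.87), and of uncouplers, carriers and porins 6 were lower and 1 higher of 9 (-1.58). The uncoupling protein Ucp2, abundant in immune cells, stood at 1.80 ± 0.13 there, and the porin Vdac1 at -2.01 ± 0.17. In the comparison of aPAPPA with control 0 genes of any of these lists passed in any tissue (edgeR; at an unadjusted p under 0.05 the most were 4 of 72 mitoribosomal proteins and 3 of 8 biogenesis regulators, both in lung, where 6.91% of all genes were). Between the sexes in subscapular fat 16 of 18 tricarboxylic acid cycle genes (-1.46) and 32 of 77 mitoribosomal proteins were lower in females (15.6% of all genes passed). In kidney 20 of 76 mitoribosomal proteins were lower and 1 higher, close to the 25.0% of all genes that passed, while 5 of 11 biogenesis regulators were higher in females, among them Perm1 (1.00 ± 0.24), Esrrb (0.67 ± 0.16) and Ppargc1a (0.41 ± 0.08). In marrow 0 of 22 genes of mitochondrial transcription and RNA handling passed for sex, where only 0.632% of all genes did.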

How the data were processed

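Total RNA of 9 tissues from 22 mice was sequenced as stranded libraries (TruSeq Stranded Total RNA, Illumina HiSeq, per the labels' protocols). The authors deposited whole-number counts per gene, and Salmon, FastQC 0.11.5 and the build mm10 are named in the submitters' processing notes; how Salmon's estimates became whole counts, and with which annotation, is not given in the sources used here. Libraries were matched to samples by mouse number and tissue, with 0 left unmatched and no 2 libraries with identical counts.

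The members and gene lists were chosen with earlier results of these data known. Counts of 6 ribosomal RNA features (Lars2, Gm42418, AK155692, NR_046233, mt-Rnr1, mt-Rnr2) were removed, then edgeR 4.0.16 (filterByExpr, TMM, quasi-likelihood test) was fitted per tissue with sex and treatment as terms, and over the control libraries for tissues, with Benjamini-Hochberg adjustment over all genes tested. Standard errors are the log2 difference divided by the square root of F, and edgeR's bound on p can make p larger than they imply. Means over tissues were tested with limma 3.58.1 on log2 CPM (prior count 2). CPM per kilobase used the exon union of each gene (GENCODE vM21) in place of the planned TPM, and a long union lowers the level. Pseudogene copies were found with blastn 2.17.0, and those used had 99.71% identity or more. Less similar copies on chromosome 2 were found but not added: Gm13340 (mt-Co1, 97.6%), Gm13341 (mt-Co2, 95.9%) and Gm13339 (mt-Nd2, 96.7%). Processed copies of nuclear members were not examined. The scripts were tested on simulated data. Described genes were all mitochondrial members, subunits with tissue forms, 2 core subunits of each complex, and those with the smallest p per test and direction; values of 1 member are not reported here. DESeq2 1.42.0, other scalings and filters, and each mouse left out were alternatives.

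The correlation of libraries of the same mouse over tissues (duplicateCorrelation) was 0.00527; mouse numbers in the labels link the tissues of an animal, and no mouse was in both arms.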

Additional observations from a re-analysis of the deposited data

Results flagged for a closer look

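Shares and ratios of the members were examined for a library far from the others of its group in 27 groups, and chance alone singles out about 1 in 20 groups. Among aPAPPA mice, subscapular fat of mouse 41 had a log2 ratio of mitochondrial to nuclear counts of 1.58, below the others. The lung of mouse 33 had a mitochondrial share of 3.2% and a nuclear share of 0.587%, above the others. The skin of mouse 36, the library with few genes detected, had 0.0301% and 0.00902%, below the others. The spleen of mouse 6 had a mitochondrial share of 0.421% and a log2 ratio of 1.35, below the others.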

How the results depend on the processing

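All 275 alternatives for treatment kept 0 members passing, and both treatment medians moved by less than 1 SD. With the mouse as replicate block, the tissue contrasts changed in kidney (50 higher), lung (48 lower) and skin (74 lower) alone, treatment over the tissues stayed at 0, sex over the tissues gave 31 members and mt-Nd4l 0.80, so the pairing changed no other call. DESeq2 gave 2 members for sex in heart, 2 in lung and 4 in skin. Skin gave 1 with ribosomal RNA features kept and 1 with 4 more features left out, and gonadal fat 9 without the filter. Kidney had 2 members lower without the libraries in doubt, liver 2 with voom, and subscapular fat 1 lower without the filter. Lung had 1 higher without the filter, with ribosomal RNA kept, without the libraries in doubt or in aPAPPA libraries, and marrow 1 in aPAPPA libraries. Leaving out 1 mouse, members passing for sex ran from 0 to 1 in heart, 23 to 29 in kidney, 25 to 47 in liver, 14 to 78 in subscapular fat, 12 to 26 in gonadal fat, 1 to 2 in lung, 1 to 3 in skin, 4 to 9 in spleen, 3 to 11 in marrow and 32 to 63 over the tissues (63 without mouse 56). Subscapular fat gave 36 without mouse 3, 27 without 55, 28 without 6, 35 without 61, 20 without 62 and 19 without 68, and marrow 5 without 11, 18, 36 or 58 and 6 without 55 or 9. As percent of all counts, mitochondrial shares were 3.35 (heart), 1.44 (kidney), 0.499 (liver), 0.440 (gonadal fat), 0.378 (lung), 0.146 (skin), 0.187 (spleen) and 1.04 (marrow), and nuclear shares 0.522, 0.223, 0.0975, 0.268 (subscapular fat), 0.117, 0.0914, 0.0501, 0.0498 and 0.0436. With 4 more features out, mitochondrial shares were 16.75 (heart), 8.87 (kidney), 3.61 (liver), 2.61 (gonadal fat), 1.84 (lung), 1.04 (skin) and 1.48 (spleen), and nuclear ones 2.62, 1.33, 0.728, 0.706 (gonadal fat), 0.375 (skin), 0.357 and 0.272 (marrow). With the copies added, log2 ratios were 2.89 (heart), 3.11 (kidney) and 2.39 (subscapular fat), and the spleen share 1.10%. These share moves follow from the changed denominator or numerator, and the cause of the others was not tested. Depth outside ribosomal RNA, 332437 counts at the lowest, limits the scarce forms Cox4i2, Cox6b2, Cox7b2 and Cox8c.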
